A study of Mus musculus with 31 samples.

Results

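Insulin and insulin-like growth factors signal through receptor kinases whose adaptors, IRS1 and IRS2, recruit PI3-kinase. Its lipid product switches on AKT and SGK1, which keep FOXO transcription factors out of the nucleus, and AKT also releases the growth kinase mTOR from its brakes. In muscle, fat and liver, glucocorticoids (GC) are known for opposing insulin action. Described here are 10 genes of this route among the 39179 in the count table. They were taken by name, with earlier results of these data known. The brakes are *Ddit4*, *Deptor* and *Sesn1*, and the adaptors *Irs1* and *Irs2*. The others are the receptor gene *Igf1r*, the PI3-kinase subunit gene *Pik3r1*, the kinase gene *Sgk1*, and *Foxo1* and *Foxo3*. All 10 passed the filter on low counts in tumors and in cultured cells.

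The 31 RNA samples came from 20967, a mouse melanoma line with Nras+LSL-G12D and Tyr::CreERT2+/o alleles on a C57BL/6 background, and from a derivative without the glucocorticoid receptor (GR KO). Per the study's methods the derivative was edited with Cas9 and grown from single cells, so clone and knockout cannot be told apart. Parental and GR KO cells were grown as tumors in wild-type C57BL/6 mice, whose own cells keep GR. Mice received a control cream or clobetasol propionate, a potent GC, as 0.05% ointment on the skin 3 times a week, and each of the 4 groups had 5 tumors. *In vitro*, cells received DMSO or clobetasol propionate, with 3 cultures per group except for 2 parental GC cultures. The treatment labels give 10 µM and the library names and the series' design 1 µM, while the study's methods give 10 µM as the usual dose and also a culture time. The labels give no age of the mice. By the series' design each tumor group had 5 mice, and nothing in the labels says that cultures of a group were grown separately, so their p-values measure only the spread between these samples, which may be technical. Totals ran from 15528066 to 26386770 counts in tumors and from 14441166 to 22463188 in cells. Levels are given as library-scaled counts (CPM, with TMM factors), and 3 counts came to between 0.108 and 0.216 CPM over all samples.

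*Nr3c1*, the gene for GR, was detected in every sample. It measured 62.8, 57.6, 43.9, 55.9 and 50.5 CPM in parental control tumors and 20.3, 26.7, 31.2, 33.6 and 23.4 CPM in GR KO control tumors. DMSO cultures held 33.9, 30.6 and 36.3 CPM in parental and 25.8, 21.6 and 16.6 CPM in GR KO cells. All GR KO values were lower in both pairs of groups, and the difference passed the test in tumors (log2 fold change -1.02, SE 0.24, adjusted p = 0.0313 from edgeR) and not in cells (log2 fold change -0.67, SE 0.22, adjusted p = 0.084 from edgeR). When the 6 tumors rich in *Gm26924*, described below, were left out, 1 GR KO control tumor remained and the estimate was -0.71 (SE 0.47, adjusted p = 0.989 from edgeR). That fit called 0 of all genes by edgeR, with 870 at an unadjusted p under 0.05, and DESeq2 was not run on this selection. Under GC, parental tumors held 54.2, 23.5, 48.4, 36.4 and 49.6 CPM and GR KO tumors 47.3, 21.4, 57.7, 31.7 and 46.9 CPM, and these groups overlapped (log2 fold change -0.02, SE 0.24, adjusted p = 0.981 from edgeR). GC-treated cultures held 40.6 and 34.2 CPM in parental and 21.4, 22.4 and 12.9 CPM in GR KO cells, again lower in every GR KO culture. Tags come from the 3′ end of a transcript and do not show whether its coding part was edited.

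Among the libraries, 3 of the 5 GR KO control tumors lay above every other tumor in *Gm26924*, and all 5 lay below every tumor of the other groups in mitochondrial counts. The predicted gene *Gm26924* took 11.6, 8.97, 6.57, 0.248 and 16.3% of counts in GR KO control tumors 1 to 5, against 5.55, 1.76, 1.24, 1.7 and 0.439% in parental control tumors. Its share was 1.6, 2.78, 1.25, 1.67 and 0.7% in parental and 0.8, 2.89, 0.959, 6.65 and 1.48% in GR KO tumors under GC. The gene is named because of these shares, after they were seen. The GR KO control tumors showed 13442, 14887, 15150, 16980 and 14335 genes with a count, against 15578 to 16801 in parental control tumors. Mitochondrial genes took 0.587, 0.629, 0.755, 1.15 and 0.976% of counts in GR KO control tumors, below every other tumor (1.25 to 2.47% in parental control, 1.33 to 2.24% in parental GC and 1.48 to 1.99% in GR KO GC tumors). Leaving out the 6 tumors with over 5% on *Gm26924*, a choice made after seeing the data, keeps GR KO control tumor 4 as the lone sample of its group, which is then assumed to vary like the other groups.

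Marker genes showed what else the samples held. Of 9 melanocyte lineage genes, 6 had no count in parental DMSO cells, *Mitf* was the most abundant at 10.3 CPM, and *Tyr* had no count in any sample. Most pigment cell markers were thus absent from the line in culture. Over the list, sums were 10.4 to 12.9 CPM in parental DMSO cells and 56 to 85.5 CPM in parental control tumors. All 7 genes tested were higher in these tumors, where 4955 of all 16273 genes were higher by edgeR. In the GR KO pair the sums were 3.19 to 5.01 and 50.4 to 97 CPM, and 6 of 7 were higher, against 5560 of all genes. Tumors held host RNA: 6 keratinocyte genes summed to 1344, 1213, 1498, 1297 and 3019.8 CPM in parental and 3173, 3757, 3208, 2022 and 1985 CPM in GR KO control tumors, most of all *Krt14*, against at most 5.88 CPM in any culture. In bulk samples, fewer cells of a type and less RNA per cell cannot be told apart.

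GC moved 5 of the 10 genes past the threshold in parental tumors (adjusted p below 0.05 and a fold change of at least 1.5), where 0.779% of 15919 tested genes passed. *Ddit4*, *Sgk1*, *Pik3r1* and *Deptor* rose and *Irs1* fell. The median log2 fold change was 0.84 for the 10 genes and 0.00 for all genes tested. As the 10 were chosen with earlier results of these data known, these figures are no independent test. In GR KO tumors 2 of the 10 passed, *Ddit4* and *Sesn1*, both upward, with 6.42% of genes passing and medians of 0.40 and 0.05. The difference between the effects, parental minus GR KO, passed for 1 gene, *Irs1*, and for 0.195% of genes. Without the 6 tumors rich in *Gm26924*, 0 of the 10 passed by edgeR in GR KO tumors and 0 in the difference, where 1359 and 919 genes had an unadjusted p under 0.05 (DESeq2 was not run on this selection). The test of the difference shares its samples with both effects. Scaling by library totals alone moved the median of all genes by 0.26 for GC in GR KO tumors, and the upward share of calls went from 42.2% to 78.7%. The shift was -0.29 for the difference (upward calls 64.5% and 3 of 10) and -0.26 between lines in control tumors (56.1% to 17.3%).

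*Ddit4* encodes REDD1, a stress-induced protein that restrains mTORC1 through the TSC complex. It measured 56.6, 98.6, 65.3, 70.6 and 106 CPM in parental control tumors and 328, 253, 331, 119 and 338 CPM with GC. Every treated tumor lay above every control, and GC tumor 4 was the lowest of its group (log2 fold change 1.77, SE 0.25, adjusted p = 0.000591 from edgeR). GR KO tumors gave 68, 57.4, 77.7, 65.1 and 96.8 CPM without and 165, 198, 117, 187 and 147 CPM with GC, again with no overlap (log2 fold change 1.19, SE 0.25, adjusted p = 0.00797 from edgeR). The effects were not shown to differ (difference 0.59, adjusted p = 0.342 from edgeR), and the alternatives other than leaving out 1 sample gave 0.32 to 0.62, with adjusted p from 0.246 to 0.929 in edgeR or DESeq2. Without the 6 tumors rich in *Gm26924* the GR KO call was lost, at 1.37 (adjusted p = 0.402 from edgeR). Over the alternatives other than leaving out 1 sample it ranged from 1.16 to 1.45, with adjusted p from 0.000455 to 0.402 in edgeR or DESeq2. Parental cells had 44.5, 30.1 and 40.2 CPM in DMSO and 57 and 72 CPM in GC. Both GC cultures lay higher, and the test did not pass (log2 fold change 0.74, SE 0.21, adjusted p = 0.206 from edgeR). GR KO cells had 36.7, 37.7 and 41 CPM in DMSO and 26.2, 39.3 and 31.5 CPM in GC, which overlapped.

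*Deptor* encodes a protein that binds mTOR and inhibits both of its complexes. Parental tumors held 72.1, 83.8, 63.4, 61 and 62.1 CPM without and 107, 176, 94.4, 192 and 153 CPM with GC, with no overlap (log2 fold change 1.08, SE 0.20, adjusted p = 0.00744 from edgeR). GR KO tumors ranged from 56 to 74.6 CPM without and 50.6 to 82.5 CPM with GC (log2 fold change 0.19, SE 0.20, adjusted p = 0.599 from edgeR). The difference did not pass (0.90, adjusted p = 0.114 from edgeR), and it did in 1 of 20 leave-one-out fits (without GR KO control tumor 4, log2 value 0.93, adjusted p = 0.047 from edgeR). Parental cultures had 59.2, 73.9 and 57.5 CPM in DMSO and 171 and 205 CPM in GC, with no overlap (log2 fold change 1.56, SE 0.21, adjusted p = 0.0041 from edgeR). That call was lost in 1 of 5 leave-one-out fits (without parental GC culture 2, log2 value 1.42, adjusted p = 0.0756 from edgeR). GR KO cultures had 24.7, 16.3 and 24.2 CPM in DMSO and 24.5, 25.4 and 33.4 CPM in GC. These groups overlapped and lay below every parental culture. The difference of effects in cells was 1.17 (adjusted p = 0.21 from edgeR), and it passed with DESeq2 (1.17, adjusted p = 0.0358 from DESeq2). For the difference in tumors the same held with DESeq2 (0.93, adjusted p = 0.0381 from DESeq2), and the alternatives other than leaving out 1 sample gave 0.57 to 0.93, with adjusted p from 0.0381 to 0.851 in edgeR or DESeq2, the highest p being that without the 6 tumors rich in *Gm26924*.

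*Sesn1* encodes sestrin 1, a stress-inducible inhibitor of mTORC1. GR KO tumors held 1.52, 4.67, 3.12, 11.3 and 5.79 CPM without and 12, 14.2, 17.2, 10.9 and 20.1 CPM with GC. Control tumor 4, the one low in *Gm26924*, was the highest control and reached the treated range (log2 fold change 1.54, SE 0.36, adjusted p = 0.0149 from edgeR). Without the 6 tumors rich in that gene the call was lost, at 0.59 (adjusted p = 0.792 from edgeR), as it was with the compared groups alone (1.53, adjusted p = 0.0691 from edgeR). These alternatives together gave 0.59 to 1.72, with adjusted p from 0.0012 to 0.792 in edgeR or DESeq2. The call was also lost in 1 of 10 leave-one-out fits (without GR KO GC tumor 5, log2 value 1.39, adjusted p = 0.0508 from edgeR). Parental tumors held 8.96, 8.28, 12.6, 18.3 and 10.7 CPM without and 22.1, 17.9, 18.2, 15.4 and 15.7 CPM with GC, which overlapped (log2 fold change 0.60, SE 0.35, adjusted p = 0.455 from edgeR). The effects were not shown to differ (difference -0.94, adjusted p = 0.288 from edgeR), and the alternatives other than leaving out 1 sample gave -1.17 to -0.07, with adjusted p from 0.222 to 0.982 in edgeR or DESeq2. DMSO cultures held 2.66, 3.2 and 2.45 CPM in parental and 2.21, 2.4 and 0.382 CPM in GR KO cells.

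**Figure D1:**
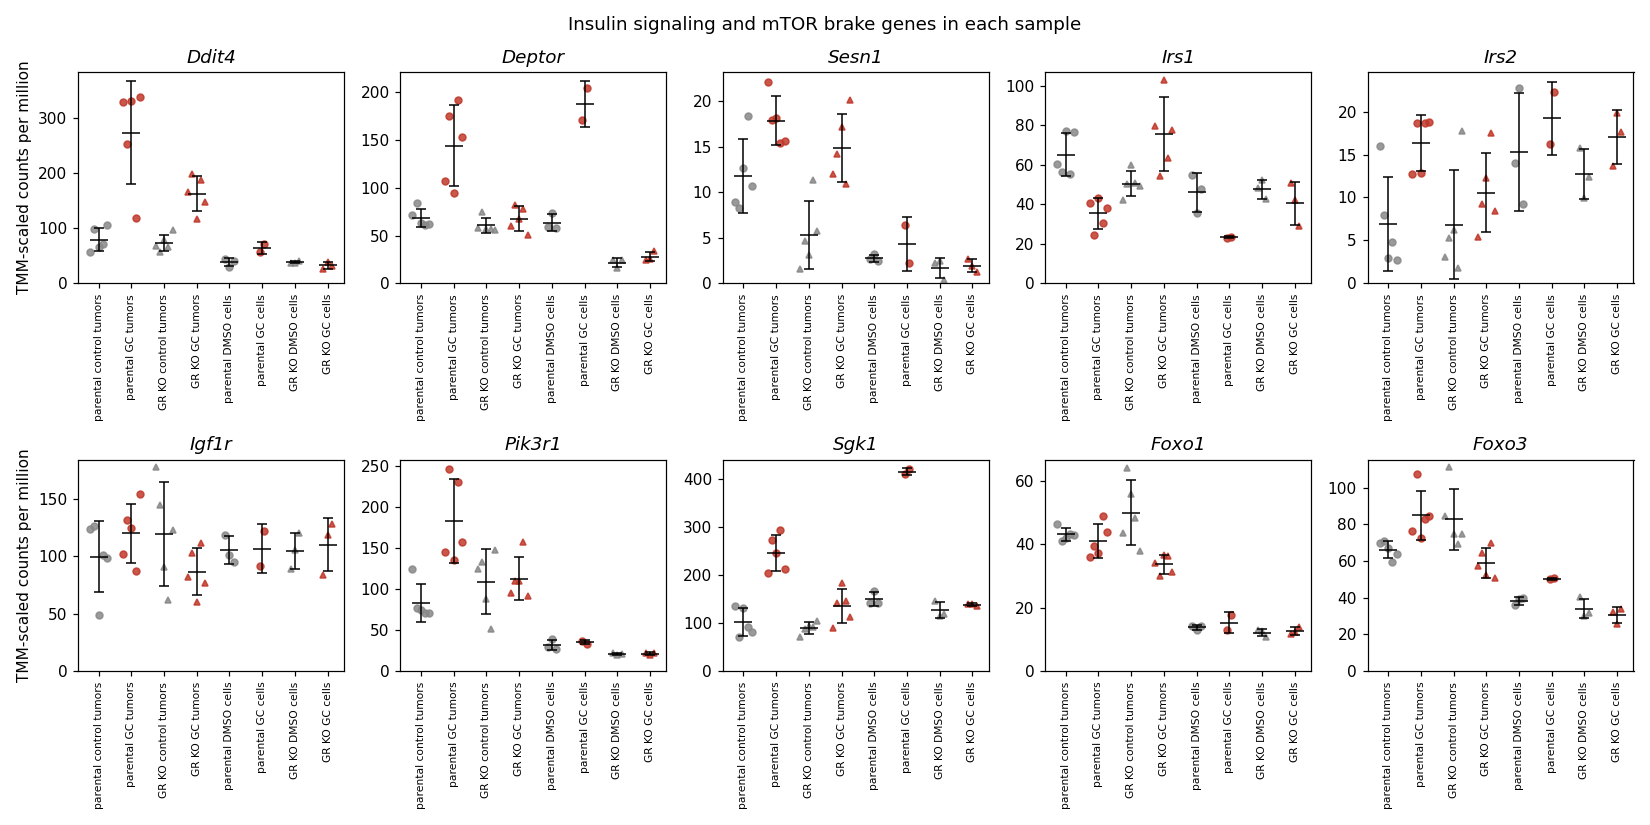
Library-scaled counts (CPM, vertical axis from 0) of each of the 10 genes in every sample, with the 8 groups along the horizontal axis. Circles are parental and triangles GR KO samples, red is GC-treated and grey control, and black bars are the mean and SD; *Sgk1* at 411 and 421 CPM in parental GC cells lies above its other samples.

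*Irs1* encodes an adaptor between the insulin and IGF receptors and PI3-kinase. Parental tumors had 60.4, 56.5, 77.1, 55.2 and 76.7 CPM without and 40.4, 24.4, 43.3, 30.4 and 38.3 CPM with GC. All treated values lay below all controls (log2 fold change -0.89, SE 0.20, adjusted p = 0.0265 from edgeR). That call was lost in 5 of 10 leave-one-out fits (without parental control tumors 3 and 5 and parental GC tumors 2, 4 and 5, log2 values -0.92 to -0.79, adjusted p from 0.0577 to 0.106 in edgeR), and in the fit without the 6 tumors rich in *Gm26924* (-0.90, adjusted p = 0.0582 from edgeR). It was lost too with library totals (-0.91, adjusted p = 0.0801 from edgeR) and with the compared groups alone (-0.89, adjusted p = 0.0689 from edgeR), and these alternatives gave -0.91 to -0.88, with adjusted p from 0.00155 to 0.0801 in edgeR or DESeq2. GR KO tumors had 41.9, 50.4, 59.9, 50.6 and 49.3 CPM without and 79.4, 54.2, 103, 63.4 and 77.7 CPM with GC, with an overlap and no call (log2 fold change 0.61, SE 0.19, adjusted p = 0.0578 from edgeR). A call appeared in 2 of 10 leave-one-out fits (without GR KO GC tumors 2 and 4, log2 values 0.67 to 0.71, adjusted p from 0.033 to 0.0468 in edgeR) and with library totals (0.89, adjusted p = 0.0229 from edgeR). The effects differed (difference of log2 fold changes -1.51, SE 0.28, adjusted p = 0.0293 from edgeR). This was lost in 10 of 20 leave-one-out fits (without parental control tumors 3 and 5, parental GC tumors 2, 4 and 5, GR KO control tumors 1 and 2 and GR KO GC tumors 1, 3 and 5, log2 values -1.53 to -1.37, adjusted p from 0.0502 to 0.0879 in edgeR). With the 6 tumors rich in *Gm26924* left out, the difference was -1.64 (adjusted p = 0.525 from edgeR) and also lost its call. The alternatives other than leaving out 1 sample gave -1.80 to -1.39, with adjusted p from 0.000303 to 0.525 in edgeR or DESeq2. Parental cells had 54.9, 35.4 and 47.7 CPM in DMSO and 23 and 23.6 CPM in GC, with no overlap and no call from edgeR (log2 fold change -0.99, SE 0.24, adjusted p = 0.114 from edgeR). It passed with DESeq2 (-0.99, adjusted p = 0.00882 from DESeq2) and with no filter (-0.99, adjusted p = 0.0384 from edgeR). GR KO cells had 48, 52.1 and 42.7 CPM in DMSO and 50.6, 42.2 and 28.8 CPM in GC, which overlapped.

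*Irs2*, the sister adaptor gene, varied within groups. Parental tumors had 16, 7.94, 2.97, 4.79 and 2.74 CPM without and 12.7, 18.7, 12.8, 18.7 and 18.7 CPM with GC (log2 fold change 1.26, SE 0.51, adjusted p = 0.268 from edgeR). Control tumor 1 was the sole control in the treated range, and *Gm26924* took 5.55% of its counts. The gene passed without the 6 tumors rich in *Gm26924*, at 1.84 (adjusted p = 0.0125 from edgeR), and with the *Gm26924* share as a covariate (1.56, adjusted p = 0.0292 from edgeR). The alternatives other than leaving out 1 sample gave 1.23 to 1.84, with adjusted p from 0.0125 to 0.308 in edgeR or DESeq2. GR KO tumors ranged from 1.75 to 17.7 CPM without and 5.37 to 17.5 CPM with GC, which overlapped (log2 fold change 0.65, SE 0.51, adjusted p = 0.454 from edgeR). There it passed with the *Gm26924* share as a covariate (1.51, adjusted p = 0.0336 from edgeR) and in no other alternative. The values were 0.39 to 1.39 over the leave-one-out fits and 0.62 to 2.43, with adjusted p from 0.0336 to 0.52 in edgeR or DESeq2, over all the other settings. *Igf1r*, the receptor gene, passed in 0 of the 11 comparisons by edgeR and 0 by DESeq2, with 0 at an unadjusted p under 0.05. Its group means ran from 86.7 CPM in GR KO GC tumors to 120.1 CPM in parental GC tumors.

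*Pik3r1* encodes a regulatory subunit of PI3-kinase. Parental tumors had 125, 76.7, 74, 70.3 and 71.3 CPM without and 145, 247, 135, 231 and 157 CPM with GC. Every treated tumor lay above every control (log2 fold change 1.14, SE 0.27, adjusted p = 0.0402 from edgeR). The call was lost in 7 of 10 leave-one-out fits (without parental control tumors 2, 3, 4 and 5 and parental GC tumors 2, 4 and 5, log2 values 1.00 to 1.19, adjusted p from 0.0558 to 0.136 in edgeR) and with the replicate block (1.13, adjusted p = 0.0524 from edgeR). GR KO tumors had 125, 133, 88.3, 50.9 and 148 CPM without and 95.6, 110.02, 109, 157 and 91.7 CPM with GC, which overlapped (log2 fold change 0.07, SE 0.26, adjusted p = 0.907 from edgeR). The effects were not shown to differ (difference 1.07, adjusted p = 0.133 from edgeR), and they did in 1 of 20 leave-one-out fits (without GR KO control tumor 4, log2 value 1.26, adjusted p = 0.0272 from edgeR). Without the 6 tumors rich in *Gm26924* the effect in GR KO tumors was 1.10 (adjusted p = 0.336 from edgeR), while the difference came to 0.24 (adjusted p = 0.929 from edgeR). The alternatives other than leaving out 1 sample gave the GR KO effect as 0.04 to 1.10, with adjusted p from 0.132 to 0.95 in edgeR or DESeq2, and the difference as 0.24 to 1.10, with adjusted p from 0.0573 to 0.929 in edgeR or DESeq2. Cultures ranged from 27.5 to 38.9 CPM in parental and 19.99 to 22.5 CPM in GR KO cells.

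*Sgk1* encodes a kinase that phosphorylates FOXO proteins and regulators of ion channels. Parental cultures had 141, 167 and 142 CPM in DMSO and 411 and 421 CPM in GC, with no overlap (log2 fold change 1.46, SE 0.13, adjusted p = 0.00023 from edgeR). GR KO cultures had 145, 114 and 119.8 CPM in DMSO and 140.1, 140.1 and 135 CPM in GC, which overlapped (log2 fold change 0.16, SE 0.12, adjusted p = 0.976 from edgeR). The effects differed (difference of log2 fold changes 1.30, SE 0.18, adjusted p = 0.00927 from edgeR), a call lost in 3 of 11 leave-one-out fits (without parental DMSO culture 1 and parental GC cultures 1 and 2, log2 values 1.26 to 1.32, adjusted p from 0.0529 to 0.0871 in edgeR). Parental tumors had 137, 70.6, 132, 92 and 80.6 CPM without and 205, 273, 247, 295 and 212 CPM with GC, with no overlap (log2 fold change 1.27, SE 0.21, adjusted p = 0.00355 from edgeR). GR KO tumors had 71, 88.8, 93.8, 92.7 and 105 CPM without and 90.3, 142, 183, 147 and 112 CPM with GC, which overlapped (log2 fold change 0.61, SE 0.21, adjusted p = 0.0811 from edgeR). In GR KO tumors it passed with library totals (0.87, adjusted p = 0.0175 from edgeR). The effects in tumors were not shown to differ (0.66, adjusted p = 0.222 from edgeR), with 0.35 to 0.80, with adjusted p from 0.133 to 0.851 in edgeR or DESeq2, over the alternatives other than leaving out 1 sample.

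*Foxo1* and *Foxo3* encode transcription factors that insulin signaling holds inactive, and neither passed with GC by edgeR. GR KO tumors had *Foxo1* at 43.7, 64, 55.7, 48.2 and 37.9 CPM without and 34.2, 30.02, 36.7, 36.2 and 31.1 CPM with GC. All treated values were lower (log2 fold change -0.54, SE 0.17, adjusted p = 0.0534 from edgeR), and the gene passed in 1 of 10 leave-one-out fits (without GR KO control tumor 5, log2 value -0.62, adjusted p = 0.0358 from edgeR). Other alternatives, all under a fold change of 1.5, gave -0.57 to -0.27, with adjusted p from 0.0124 to 0.718 in edgeR or DESeq2. Parental tumors had *Foxo3* at 69.8, 71.1, 67.3, 59.3 and 63.5 CPM without and 76.6, 108, 72.6, 82.7 and 84.6 CPM with GC. All treated values were higher (log2 fold change 0.36, SE 0.17, adjusted p = 0.35 from edgeR). In GR KO tumors the *Foxo3* groups overlapped (log2 fold change -0.46, SE 0.17, adjusted p = 0.1 from edgeR). The difference for *Foxo3* was 0.82 (adjusted p = 0.101 from edgeR) and passed in 1 of 20 leave-one-out fits (without GR KO control tumor 4, log2 value 0.89, adjusted p = 0.0308 from edgeR) and with DESeq2 (0.85, adjusted p = 0.0252 from DESeq2). Its alternatives other than leaving out 1 sample gave 0.50 to 0.85, with adjusted p from 0.0252 to 0.853 in edgeR or DESeq2, and without the 6 tumors rich in *Gm26924* it came to 0.59 (adjusted p = 0.853 from edgeR).

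In parental cells, GC moved 2 of the 10 genes past the threshold, *Deptor* and *Sgk1*, both upward, where 0.878% of 12525 genes passed. The median was 0.35 for the 10 and 0.00 for all genes. In GR KO cells 0 of the 10 and 0% of genes passed by edgeR, DESeq2 called 0 genes, and 237 genes had an unadjusted p under 0.05 in edgeR. The medians there were 0.10 and 0.02. The difference of effects passed for 1 of the 10, *Sgk1*, and for 0.295% of genes.

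**Figure D2:**
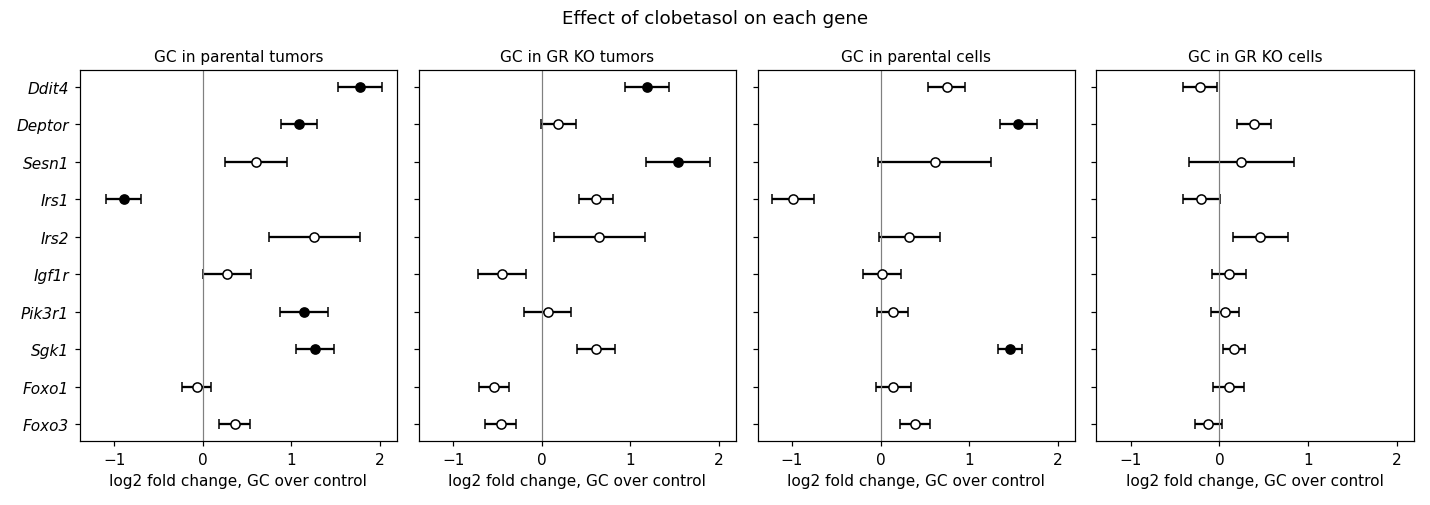
log2 fold change of GC over control (horizontal axis) for each of the 10 genes in parental and GR KO tumors and cells. Bars are 1 SE and filled points passed the threshold, 5 in parental tumors, 2 in GR KO tumors, 2 in parental cells and 0 in GR KO cells.

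Between lines, 0 of the 10 genes passed in control tumors by edgeR, where 2.25% of genes passed and 3180 had an unadjusted p under 0.05. DESeq2 called 1 of the 10 there, *Sesn1* (log2 fold change -1.16, adjusted p = 0.0271 from DESeq2), and edgeR called it in 1 of 10 leave-one-out fits (without GR KO control tumor 4, log2 value -1.64, adjusted p = 0.00735 from edgeR). That tumor lay within the range of the parental controls. With the 6 tumors rich in *Gm26924* left out it is the lone GR KO control, and the log2 fold change was -0.22 (adjusted p = 1 from edgeR). Alternatives other than leaving out 1 sample gave -1.36 to -0.22, with adjusted p from 0.0271 to 1 in edgeR or DESeq2. In GC-treated tumors 2 of the 10 passed, against 0.634% of genes. *Deptor* was lower in GR KO tumors (log2 fold change -1.08, SE 0.20, adjusted p = 0.00985 from edgeR) and *Irs1* higher (log2 fold change 1.12, SE 0.20, adjusted p = 0.00517 from edgeR), both with no overlap. *Sgk1* passed with DESeq2 (-0.87, adjusted p = 0.00718 from DESeq2) and with the *Gm26924* share as a covariate (-0.88, adjusted p = 0.0282 from edgeR), and *Pik3r1* with the *Gm26924* share as a covariate (-0.78, adjusted p = 0.0221 from edgeR). In DMSO cells 2 of the 10 passed, against 8.22% of genes. *Deptor* was lower in GR KO cells (log2 fold change -1.56, SE 0.20, adjusted p = 0.000583 from edgeR), and so was *Pik3r1* (log2 fold change -0.61, SE 0.16, adjusted p = 0.034 from edgeR). The *Pik3r1* call was lost in 5 of 6 leave-one-out fits (without parental DMSO cultures 1 and 2 and GR KO DMSO cultures 1, 2 and 3, log2 values -0.68 to -0.43, adjusted p from 0.057 to 0.131 in edgeR), and with library totals (-0.58, adjusted p = 0.0319 from edgeR, under a fold change of 1.5), with no filter (-0.61, adjusted p = 0.0567 from edgeR), with the replicate block (-0.61, adjusted p = 0.0681 from edgeR) and with the compared groups alone (-0.61, adjusted p = 0.072 from edgeR). These comparisons share their samples with those of GC.

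Tumors and cultures were separate experiments, so tissue and experiment cannot be told apart. Of all 16273 genes, 46.7% passed between parental control tumors and parental DMSO cells, 4955 higher in tumors and 2640 lower. Of the 10 genes, 5 were higher in these tumors and none lower. They were *Sesn1* (log2 fold change 2.09, SE 0.51, adjusted p = 0.00123 from edgeR), *Foxo1* (log2 fold change 1.65, SE 0.18, adjusted p = 9.80e-09 from edgeR), *Pik3r1*, *Ddit4* and *Foxo3*. Between GR KO control tumors and GR KO DMSO cells 54.8% of all genes passed, 5560 higher in tumors and 3357 lower. Of the 10 genes, 6 were higher in the GR KO tumors and none lower. *Pik3r1* was among them (log2 fold change 2.38, SE 0.29, adjusted p = 4.08e-08 from edgeR). Leaving out the 6 tumors rich in *Gm26924* keeps GR KO control tumor 4 as the lone sample of its group, and *Pik3r1* was then at 1.22. Over the alternatives other than leaving out 1 sample it was at 1.22 to 2.48. *Deptor* passed in this pair too (log2 fold change 1.48, SE 0.23, adjusted p = 1.88e-06 from edgeR). *Sesn1* was lost in 1 of 8 leave-one-out fits (without GR KO DMSO culture 3, log2 value 1.20, adjusted p = 0.0554 from edgeR) and with the compared groups alone (1.67, adjusted p = 0.102 from edgeR). Lower *Irs2* and *Sgk1* in parental tumors passed in 2 of 8 leave-one-out fits (without parental control tumor 1 and parental DMSO culture 3, log2 values -1.73 to -1.42, adjusted p from 0.00579 to 0.0469 in edgeR) and 4 of 8 leave-one-out fits (without parental control tumors 1 and 3 and parental DMSO cultures 1 and 3, log2 values -0.68 to -0.59, adjusted p from 0.00889 to 0.0457 in edgeR), and higher *Irs1* in 1 of 8 leave-one-out fits (without parental DMSO culture 1, log2 value 0.65, adjusted p = 0.0416 from edgeR). *Sgk1* passed as lower in GR KO tumors with library totals (-0.66, adjusted p = 0.00852 from edgeR), in parental tumors it also passed with no filter (-0.60, adjusted p = 0.0273 from edgeR) and with the compared groups alone (-0.60, adjusted p = 0.0457 from edgeR), *Irs2* as lower there with no filter (-1.22, adjusted p = 0.0495 from edgeR), and *Irs1* passed as higher there with library totals (0.62, adjusted p = 0.0497 from edgeR). Library totals moved the median of all genes by 0.12 in the parental and -0.17 in the GR KO pair. Lower *Irs2* in GR KO tumors passed in 1 of 8 leave-one-out fits (without GR KO control tumor 5, log2 value -1.64, adjusted p = 0.0048 from edgeR). With the 6 tumors rich in *Gm26924* left out, *Irs2* came to -2.91 in this pair, while *Ddit4* lost its call, at 0.70. Both values rest on GR KO control tumor 4 alone, which had the lowest *Irs2* of its group (1.75 CPM). In parental tumors that selection gave calls for lower *Irs2*, at -1.78 (adjusted p = 0.000169 from edgeR), and for lower *Sgk1*, at -0.71 (adjusted p = 0.00801 from edgeR). All alternatives other than leaving out 1 sample gave *Irs2* -2.91 to -0.81 in the GR KO pair, with adjusted p up to 0.254 in edgeR or DESeq2. They gave *Ddit4* 0.70 to 1.01, and the values of -2.91 and 0.70 are those of the lone tumor. In the parental pair they gave *Irs2* -1.78 to -1.05, with adjusted p from 0.000169 to 0.082 in edgeR or DESeq2, and *Sgk1* -0.71 to -0.43, with adjusted p from 0.00801 to 0.0888 in edgeR or DESeq2.

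Across the 8 groups, *Sgk1* was highest in parental GC cells (416 ± 7.65 CPM, SD, n = 2), followed by parental GC tumors (246 ± 38.4 CPM, SD, n = 5). From the third place down, no neighbours in its order differed by more than the larger SD, and GR KO control tumors came last (90.2 ± 12.2 CPM, SD, n = 5). *Deptor* was highest in parental GC cells (188 ± 23.9 CPM, SD, n = 2) and lowest in GR KO DMSO cells (21.7 ± 4.7 CPM, SD, n = 3). *Ddit4* was highest in parental GC tumors (274 ± 93.2 CPM, SD, n = 5), followed by GR KO GC tumors (163 ± 32.3 CPM, SD, n = 5). *Irs1* was highest in GR KO GC tumors (75.5 ± 18.6 CPM, SD, n = 5), a lead over parental control tumors (65.2 ± 10.8 CPM, SD, n = 5) smaller than the larger SD, and lowest in parental GC cells (23.3 ± 0.418 CPM, SD, n = 2). For *Irs2* and *Igf1r* no neighbours in the order differed by more than the larger SD.

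The genes closest to each of the 10 over the 20 tumors, of 10197 compared, are given by Pearson's r of log2 CPM as a description, since tumors share groups and library quality. *Ddit4* was closest to *Per1* (0.87), *Tsc22d3* (0.84) and *Mt2* (0.83). *Deptor* was closest to *Abca9* (0.93), *Stab1* (0.91) and *Col4a1* (0.91). Genes close to *Sesn1* included *Smim15* (0.89) and *Krt10* (0.88). *Irs1* was closest to *Klf10* (0.89), *Actn1* (0.88) and *Sh3bp4* (0.87), and *Irs2* to *Pcmtd1* (0.90), *Jmjd1c* (0.89) and *Dnajc25* (0.89). For *Igf1r* they were *B930095G15Rik* (0.85), *Kat6b* (0.84) and *Lpcat1* (0.83), and for *Pik3r1* *Dstn* (0.89), *Dst* (0.87) and *Mertk* (0.87). *Sgk1* was closest to *Ctla2a* (0.88), *Stab1* (0.87) and *Phf15* (0.87), so *Stab1* was near both *Deptor* and *Sgk1*. *Foxo1* was closest to *Itpk1* (0.81), *Ap4s1* (0.79) and *Hba-a1* (0.79), and *Foxo3* to *Zfp219* (0.88), *Atp6v0a1* (0.88) and *Vangl1* (0.87).

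Other genes of the pathway were taken from 9 lists with 121 genes, of which 115 were tested in tumors. With GC in parental tumors 1 passed (0.87%, against 0.779% of all genes), with a median of -0.06 over the lists. It was *Rps6kb2*, an S6 kinase gene, and rose (log2 fold change 0.91, SE 0.22, adjusted p = 0.0437 from edgeR). In GR KO tumors 8 rose and 7 fell (13.04%, against 6.42% of all genes). That comparison called 1022 of all genes, 303 to 2411 on leaving out 1 sample and 29 without the 6 tumors rich in *Gm26924*, and the list genes were not counted in those fits. Among those that rose was *Pdcd4*, which encodes a translation inhibitor (log2 fold change 1.31, SE 0.22, adjusted p = 0.00215 from edgeR). *Akt2* fell (log2 fold change -0.94, SE 0.26, adjusted p = 0.0307 from edgeR). In parental cells 1 of 109 rose (0.917%, against 0.878% of all genes), *Ndrg1*, whose protein is an SGK1 substrate (log2 fold change 0.89, SE 0.16, adjusted p = 0.0273 from edgeR). Of 13 ATF4 target genes, 10 were lower in parental control tumors than in DMSO cells, where 2640 of all 16273 genes were lower and 4955 higher by edgeR. *Chac1* was among those lower (log2 fold change -3.17, SE 0.70, adjusted p = 0.000423 from edgeR). In the GR KO pair 10 were lower and 2 higher, against 3357 and 5560 of all genes.

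As a check of the drug, 3 of 6 classical GC-induced genes rose in parental tumors, 4 in GR KO tumors, 4 of 5 tested in parental cells and 0 of 5 in GR KO cells by edgeR. Of all genes tested, 0.779%, 6.42%, 0.878% and 0% passed in the same order. *Tsc22d3*, which encodes GILZ, rose in parental tumors (log2 fold change 2.34, SE 0.25, adjusted p = 1.61e-05 from edgeR), in GR KO tumors (log2 fold change 1.77, SE 0.25, adjusted p = 0.000403 from edgeR) and in parental cells (log2 fold change 3.09, SE 0.20, adjusted p = 2.28e-05 from edgeR). Effects in cells differed for *Tsc22d3* and *Per1*, the former by 3.14 in log2, while in tumors the difference for *Tsc22d3* did not pass (log2 fold change 0.57, SE 0.34, adjusted p = 0.347 from edgeR).

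Genes used as markers of host cells moved with GC and between lines, and their part in the results was not tested. Not all were confined to host cells, as parental DMSO cells held *Egfl7* at a mean of 24.5 and *Col3a1* at 197 CPM. The 6 fibroblast genes, most of all *Col3a1* in parental and *Col1a1* in GR KO tumors, summed to 6575, 7364, 6681, 7388 and 6747 CPM in parental control tumors and 10787, 7940.4, 10664, 7486 and 10617 CPM with GC. GR KO tumors had 3505, 3795, 4412, 6848 and 4986 CPM without and 9734, 7934, 11165, 7081 and 10482 CPM with GC. Sums were higher with GC in both lines with no overlap. By edgeR 4 of the 6 genes rose in GR KO tumors and 0 of the 6 passed in parental tumors. The median log2 fold change was 0.84 in GR KO and 0.34 in parental tumors. Over all genes, 6.42% passed with GC in GR KO and 0.779% in parental tumors.

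The 6 keratinocyte genes, given above without GC, summed to 1939.7, 1959, 1668, 2033 and 2095 CPM in parental and 1167, 1370.1, 1809, 1947 and 1617 CPM in GR KO tumors with GC. With GC 2 of them rose in parental tumors, and 2 rose and 1 fell in GR KO tumors. The 4 neutrophil genes, most of all *S100a8*, summed to 22.3, 66.9, 237, 32.4 and 1234 CPM in parental control tumors and 14.7, 9.02, 11.1, 22 and 38.6 CPM with GC, and 2 of the 4 fell. GR KO tumors had 420.00, 767, 264, 187 and 1012 CPM without and 95.4, 48.1, 228, 194 and 129 CPM with GC. The 5 endothelial genes summed to 91.5, 80.7, 59, 90.6 and 62.9 CPM in parental control tumors and 52.1, 52.4, 37.8, 58.9 and 45.3 CPM with GC. They summed to 146, 132, 129, 154 and 137 CPM in GR KO control tumors and 60.3, 72.9, 60.9, 73.8 and 57.1 CPM with GC, where 2 of the 5 fell, and *Kdr* or *Egfl7* was the most abundant in each tumor group. The 3 leukocyte genes summed to 641, 601, 508, 690.1 and 604 CPM in parental control tumors and 549, 499, 365, 648 and 449.9 CPM with GC. They summed to 1882, 1030.2, 1003, 817 and 887 CPM in GR KO control tumors and 523, 532, 454, 419 and 439 CPM with GC, and 1 of the 3 fell in each line. The 6 adipocyte genes, most of all *Cfd*, summed to 138, 192, 117, 167 and 147 CPM in parental control tumors and 131, 118, 151, 161 and 128 CPM with GC. In GR KO tumors they came to 99.7, 162, 127, 228 and 88.1 CPM without and 70.6, 69.5, 60.2, 69.7 and 49.6 CPM with GC, lower in every treated tumor, and 1 of the 6 fell there. The 7 skeletal muscle genes, most of all *Acta1*, summed to 457, 398, 411, 373 and 388 CPM in parental control tumors and 632, 286, 351, 487 and 409 CPM with GC. In GR KO tumors the sums were 503, 502, 647, 643 and 334 CPM without and 299, 377, 391, 264 and 279 CPM with GC, where 2 of the 7 fell. The difference of effects passed for 1 of the 7, with a median of 1.17, the sole gene of the marker lists to do so. The 5 T and NK cell genes, most of all *Cd3d* or *Nkg7*, summed to 47.1 to 122 CPM in parental control tumors and 45 to 96 CPM with GC, and to 77.4 to 169 CPM in GR KO control tumors and 46 to 91.5 CPM with GC, where 1 of the 5 fell. Sums of the 5 myeloid genes, most of all *Lyz2*, overlapped between the tumor groups (989 to 2153 and 719 to 1604 CPM in parental and GR KO control tumors, 1005 to 1688 and 1109 to 1495 CPM with GC). Among control tumors, those of the GR KO line were higher by edgeR in 2 of the 5 endothelial genes and 1 of the 3 leukocyte genes and lower in 1 fibroblast and 1 keratinocyte gene, in a comparison that called no gene without the 6 tumors rich in *Gm26924*. Under GC 1 adipocyte and 1 muscle gene were lower in GR KO tumors. In cultures the fibroblast genes summed to 175 to 289 CPM in parental and 63.7 to 88.3 CPM in GR KO cells. The endothelial genes summed to 21.4 to 28.5 and 11.1 to 15.4 CPM. Lower in GR KO than parental DMSO cells by edgeR were 3 of 5 fibroblast, 1 of 2 endothelial and 2 of 2 melanocyte genes tested, where 8.22% of all genes passed. In any culture the adipocyte and muscle genes summed to at most 0.687 and 5.9 CPM, and the leukocyte genes to at most 0.878 CPM.

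On GRCm38, *Ddit4* (ENSMUSG00000020108) lies on chromosome 10, 59949669 to 59951834, minus strand, *Sgk1* (ENSMUSG00000019970) on chromosome 10, 21882184 to 21999903, plus strand, *Deptor* (ENSMUSG00000022419) on chromosome 15, 55112317 to 55259271, plus strand, *Irs1* (ENSMUSG00000055980) on chromosome 1, 82233101 to 82291416, minus strand and *Pik3r1* (ENSMUSG00000041417) on chromosome 13, 101680563 to 101768217, minus strand. The annotation places *Gm9747* inside *Irs1* on the opposite strand (82233112 to 82235933), and it had no count in any sample. It begins next to the 3′ end of *Irs1*, in the stretch where tags come from. Whether reads of *Irs1* went uncounted there was not tested. *Gm9920*, on the strand opposite *Deptor*, spans its start. It had no count in DMSO cultures or in GR KO GC cultures and 6 to 20 counts in parental GC cultures, where *Deptor* had 2413 and 4422. Parental tumors held 1 to 58 of its counts without and 16 to 65 with GC, and GR KO tumors 0 to 42 and 10 to 28. *Gm9920* does not cover the 3′ end of *Deptor*, where tags come from. Whether counting used the strand is not given in the sources used here, so reads from a stretch that overlapping genes share cannot be told apart.

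RefSeq promoter windows (GRCm38.p6, 300 bases each) were found for 9 of the 10 genes, 16 windows in all, and searched on both strands. None was found for *Deptor*, so its promoter was not searched. *Sgk1* had more windows than any other of the genes, and so more room for a match. The glucocorticoid response element (AGAACA, then 3 of any base, then TGTTCT) was in 1 of them, at *Sgk1*, and in 0.009% of 32851 windows. Either of its arms alone was in 3 of the 16, all at *Sgk1*, and in 19% of all. The FOXO motif GTAAACA or TGTTTAC was in 1, at *Sesn1*, and in 3.65% of all, and the ATF4 motif TGATGCAA or TTGCATCA in 0, and in 0.895% of all. A match is a run of letters and no measure of binding. The *Sgk1* window with the element is shown because the gene rose with GC in parental tumors and cells, and that of *Ddit4* because it rose in tumors of both lines and has no match. Capitals mark the element and its arms.
*Sgk1* promoter, chr10:21993640-21993939, plus strand: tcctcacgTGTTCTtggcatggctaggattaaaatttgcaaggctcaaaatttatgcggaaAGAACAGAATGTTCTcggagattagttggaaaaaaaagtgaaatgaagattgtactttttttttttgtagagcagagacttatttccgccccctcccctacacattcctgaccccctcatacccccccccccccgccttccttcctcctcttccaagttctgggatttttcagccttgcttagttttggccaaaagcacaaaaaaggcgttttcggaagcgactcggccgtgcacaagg
*Ddit4* promoter, chr10:59951721-59952020, minus strand: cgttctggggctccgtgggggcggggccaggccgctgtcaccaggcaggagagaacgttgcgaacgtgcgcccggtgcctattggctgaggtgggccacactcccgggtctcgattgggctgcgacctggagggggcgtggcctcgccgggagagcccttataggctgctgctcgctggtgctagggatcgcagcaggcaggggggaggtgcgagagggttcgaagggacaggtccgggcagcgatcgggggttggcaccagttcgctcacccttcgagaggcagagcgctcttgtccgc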

How the data were processed

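The values are counts per gene as deposited by the authors. Per their methods, QuantSeq 3′ reads were trimmed with Trim Galore 0.6.5, aligned with STAR 2.6.1d to GRCm38 and counted with featureCounts on Ensembl 75. The authors went on to filter and normalize with edgeR, and the deposited counts are from before that step. Genes at 0.5 CPM or more in at least 3 samples were kept, separately for tumors, cells and both together. edgeR 4.0.16 in R 4.3.3 fitted group means with TMM factors and quasi-likelihood tests, and p-values were adjusted by Benjamini-Hochberg over all genes tested. Printed levels use TMM factors over all 31 samples. DESeq2 1.42.0, other scalings, filters and fold changes, and leaving out each sample, were the alternatives. All 10 genes are named. From each pathway list the genes past the threshold could be named, or the 4 with the largest change where more than 4 passed. Some genes that this rule would name are not reported here. The members and lists were chosen with earlier results of these data known. The alternatives on *Gm26924* were added after its shares were seen. The scripts were tested on simulated data. The floor of 3 counts covers counting error only.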

Additional observations from a re-analysis of the deposited data

Results flagged for a closer look

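The highest or lowest sample of 40 groups of 5 tumors was tested by Dixon's ratio, the gap to the nearest sample over the range, and in 4 groups the highest lay far from the others. Chance gives a sample that far out, at one end or the other, in about 1 in 20 groups. The 40 groups are the same tumors read for each of the 10 genes, so they are not independent and that rate is only a guide. The 4 samples are all among the 6 tumors with over 5% of counts on *Gm26924*, whose part in this was not tested. Most GR KO control tumors are among those 6, so a sample of that group was likely to be one of them. *Deptor* was highest in GR KO control tumor 2 (74.6 CPM, next 58.4 and lowest 56 CPM, gap over range 0.87). *Irs2* was highest in GR KO control tumor 5 (17.7 CPM, next 6.23 and lowest 1.75 CPM, gap over range 0.72). *Pik3r1* was highest in parental control tumor 1 (125 CPM, next 76.7 and lowest 70.3 CPM, gap over range 0.882). It was also highest in GR KO GC tumor 4 (157 CPM, next 110.02 and lowest 91.7 CPM, gap over range 0.721). The effect of GC differed between lines for *Irs1* in tumors (difference of log2 fold changes -1.51, SE 0.28, adjusted p = 0.0293 from edgeR). That call was lost in 10 of 20 leave-one-out fits and without the 6 tumors rich in *Gm26924*, at -1.64 (adjusted p = 0.525 from edgeR). The alternatives other than leaving out 1 sample gave -1.80 to -1.39, with adjusted p from 0.000303 to 0.525 in edgeR or DESeq2. It also differed for *Sgk1* in cells (difference of log2 fold changes 1.30, SE 0.18, adjusted p = 0.00927 from edgeR), a call lost in 3 of 11 leave-one-out fits. No cause was tested.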

How the results depend on the processing

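No result changed direction past the threshold. The number of the 10 genes past it became 3 for the difference in tumors, 1 for GR KO against parental control tumors and 2 for the difference in cells with DESeq2. With library totals in place of TMM it was 4 for GC in GR KO tumors and 1 for GR KO against parental DMSO cells. With only the groups compared in the fit these were 1 and 1. For GR KO against parental DMSO cells it was 1 with no filter and 1 at a minimum fold change of 2. Without the 6 tumors rich in *Gm26924*, chosen after seeing the data, it was 0 for GC in GR KO tumors and 0 for the difference in tumors by edgeR, with 29 and 0 of all genes past the threshold and 1359 and 919 at an unadjusted p under 0.05. With the share of that gene as a covariate it was 4 for GR KO against parental GC tumors. At a minimum fold change of 2, *Irs1* lost its call with GC in parental tumors, as *Foxo3* and *Ddit4* did between tumors and cells of the parental and GR KO lines. The cause was not tested where the limit itself does not give it.

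With the replicate block it was 1 for GR KO against parental DMSO cells, and all genes past the threshold numbered 144 for the difference in tumors, 160 for GR KO against parental GC tumors and 63 for GC in parental cells. Residuals of samples with the same number had a mean r of 0.0581 over 30 pairs of tumors and 0.0199 over 15 pairs of cultures. It was highest among tumors between the GC groups of the lines (0.285, 4 of 5 pairs over 0.1 and the lowest at 0.09995). There 3 of 10 samples were closest to their own number. Higher values came from cultures with 2 pairs each: 0.428 between the GC groups of the lines and 0.325 between the parental groups. In both, 2 of 2 pairs were over 0.1 and 3 of 4 samples were closest to their own number. No groups with 3 or more pairs had every pair over 0.1, a limit that the GC tumor groups missed only narrowly. On this rule the numbers were not taken as pairs, which does not show that pairing was absent. A link between some samples was not tested further. No other count of the 10 genes moved by over 1.5 times with the block.

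Leaving out each sample gave 3 to 5 genes for GC in parental tumors, 1 to 3 in GR KO tumors, 0 to 4 for their difference, 0 to 1 for GR KO against parental control tumors, 1 to 2 for GC in parental cells, 0 to 1 for the difference in cells and 1 to 2 for GR KO against parental DMSO cells. Over all 11 comparisons, 33 leave-one-out estimates of single genes lost a call, 15 gained one and 0 changed direction past the threshold. Where an arm kept 1 sample, it was assumed to vary like the other groups. All genes past the threshold in edgeR numbered 124 for GC in parental tumors, 1022 in GR KO tumors, 31 for the difference, 358 and 101 between lines in control and GC tumors, 110 for GC in parental cells, 37 for the difference in cells and 1030 between lines in DMSO cells. Leaving out each sample gave 60 to 178, 303 to 2411, 0 to 1284, 61 to 1762, 40 to 114, 31 to 78, 17 to 43 and 594 to 916 in the same order. With DESeq2 they were 376 for GC in parental tumors, 1756 in GR KO tumors, 784 for the difference, 1001 and 293 between lines in control and GC tumors, 251 for GC in parental cells and 128 for the difference in cells. Library totals gave 10 for the difference in tumors. With no filter they were 49 and 64 for the differences in tumors and cells, at a minimum fold change of 2 they were 583 for GC in GR KO tumors and 238 between lines in control tumors, and with only the groups compared 391, 159 and 59 (GC in parental cells). Without the 6 tumors they were 0 and 170 between lines in control and GC tumors by edgeR (870 and 2576 at an unadjusted p under 0.05), and with the covariate 329, 626, 69 and 225 for GC in parental and GR KO tumors and between lines in control and GC tumors.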
